A study of Mus musculus with 4 samples.

Results

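Bach1 is a transcriptional repressor with a basic leucine zipper, and its peaks across the genome of M1, a myeloid leukemia line of the mouse, are described here. The members are all 3871 nuclear peaks of the deposited Bach1 list. The lists of the 3 factors of the series held 7017 peaks, counted with the mitochondrial genome. The 2 peaks on the mitochondrial genome were left out, and no filter on height was applied. Chromatin immunoprecipitation followed by sequencing (ChIP-seq) had been done on unstimulated M1 cells with an in-house antibody named A1-6, and input DNA of the same cells, taken without antibody, served as the control library. The other libraries of the series, against Bach2 and NF-E2 p18 (Mafk), enter only through the span of each chromosome and 1 sentence on spacing. Each factor had 1 library, so no value has a replicate error and no test between conditions was possible. All libraries came from 1 cell line, and whether the antibody also binds other proteins was not tested.

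Bach1 forms heterodimers with small Maf proteins and binds Maf recognition elements, short DNA sites that overlap the antioxidant response element used by NRF2. Heme binds Bach1 and releases it from DNA, which allows its targets to be transcribed. Known targets include the heme oxygenase gene Hmox1, ferritin genes, genes of glutathione and thioredoxin metabolism, and globin genes. The peak list carries no gene names and its positions are those of the mouse build mm9. The gene table used here describes a later build, so no peak was assigned to a gene, and the loci below are given by position. No sequence of this build was used here, so none is printed.

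Bach1 peaks were short and centred on their summits. The length ran from 227 to 5820 bp around a median of 349 bp, and 5% of the peaks were longer than 700 bp. Exactly 114 peaks had the shortest length, and whether the caller sets this minimum was not tested. The pileup, which counts the fragments stacked at the summit, ran from 17 to 454 with a median of 52. The fold enrichment, the authors' ratio of that pileup to the local control, ran from 1.36 to 45.3 with a median of 4.66. A value of at least 10 was reached by 453 peaks, or 11.7% (95% Wilson interval 10.7 to 12.8), and a value of at least 20 by 62, or 1.60% (1.25 to 2.05). Only 14 peaks reached 30. These intervals cover counting of peaks in this library alone, and neighbouring peaks are not independent.

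Taller peaks were longer. The Spearman rho of length and pileup across all 3871 peaks was 0.58, and that of length and fold enrichment was 0.53. These are correlations across peaks of 1 library, which share its depth and its caller settings. The 1331 peaks under 300 bp had a median pileup of 40 and a median fold enrichment of 3.67 (quartiles 3.09 to 4.56). For the 1860 peaks from 300 to under 500 bp the medians were 54 and 5.40, and for the 624 peaks from 500 to under 1000 bp they were 102 and 7.80. The 56 peaks of 1000 bp or more had medians of 143.5 and 8.13.

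**Figure D1:**
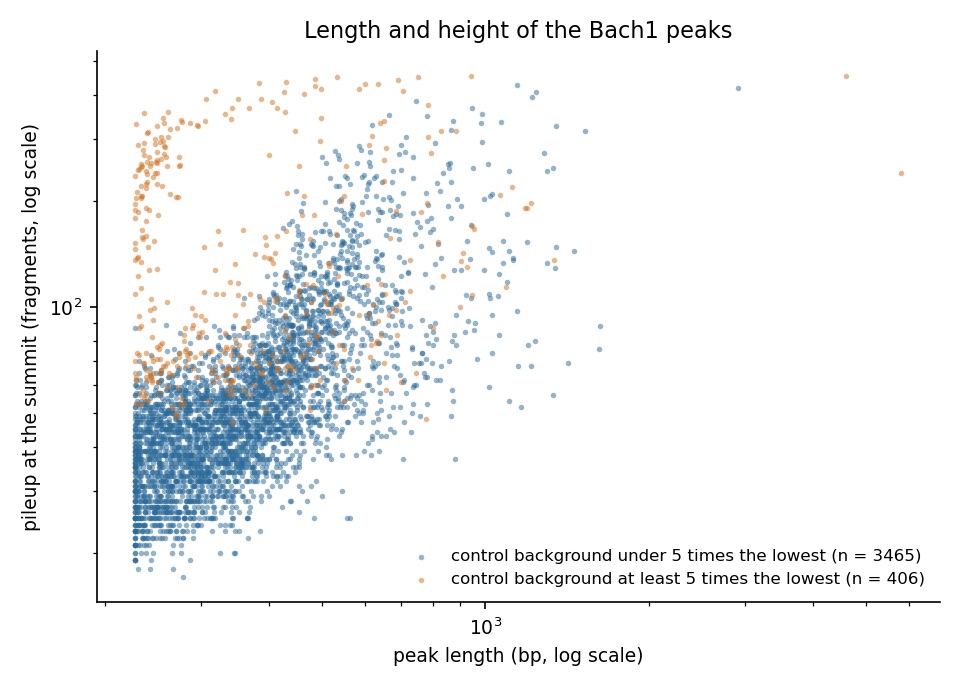
Length (bp) and pileup at the summit (fragments) of each of the 3871 Bach1 peaks, both on log scales, 1 point per peak, coloured by whether the control background at the summit was low (under 5 times the lowest value) or high (5 times or more). Most points rise from left to right, while a separate set of short, tall peaks at the upper left is made of peaks with a high control background.

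The summit lay in the middle 20% of the peak length at 2517 peaks, or 65.0% (63.5 to 66.5), and in the first or last 20% at 145, or 3.75% (3.19 to 4.39). An outer summit was found in 6.16% (4.99 to 7.58) of the peaks under 300 bp, in 1.83% (1.31 to 2.54) of those from 300 to under 500 bp and in 12.5% (6.19 to 23.6) of those of 1000 bp or more. The control background at each summit was computed from the pileup and the fold enrichment and is given as a multiple of its smallest value among these peaks. A background of 5 times or more is called high and anything less low. The smallest value and the 5th percentile were both 4.18 scaled fragments, so many peaks shared this value. Whether it is a floor set by the caller, and not a level measured at the locus, was not tested. The longest peaks of all were chr17:39979965-39985784 (5820 bp, pileup 240) and chr1:24618398-24622998 (4601 bp, pileup 454), with fold enrichments of 3.31 and 1.45 and high backgrounds of 17.2 and 74.9 times the lowest. The longest peak with a low control background, chr8:77605569-77608487, was 2919 bp long and had its summit at 0.787 of its length. The other long peaks of low control background were chr14:21297749-21299375 (1627 bp, pileup 88), chr13:23852744-23854362 (1619 bp, pileup 76), chr3:122958758-122960283 (1526 bp, pileup 317) and chr14:62362362-62363817 (1456 bp, pileup 144). The pileups of these long peaks ran from about the third quartile of the list, 78, to several times that value.

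The highest fold enrichment, 45.3, was at chr7:28167760-28168745, with a pileup of 294. It was followed by chr2:103985960-103986574 (43.3, pileup 251), chr7:111009212-111010083 (43.0, pileup 338) and chr2:69451101-69451965 (42.4, pileup 227). The remaining peaks among the 10 highest were chr9:122380544-122381242 (39.9), chr16:9132058-9133008 (38.2), chr3:146317596-146318583 (38.2), chr2:131761242-131761942 (36.7), chr19:59052868-59053937 (35.7) and chr8:77612939-77614159 (33.0). These 10 peaks lay on 7 chromosomes and were 615 to 1221 bp long, and 6 of them had no other Bach1 peak within 50 kb. Of the 100 highest, found on 19 chromosomes, 67 stood alone in this sense, near the 63.4% of all 3871 peaks, and 2 were in a group of 5 or more, where 5.50% of all peaks were.

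Each chromosome but Y had at least 1 peak with a fold enrichment of 15.6 or more. The strongest peak was chr1:9979942-9980531 (31.3) on chromosome 1, chr13:45719024-45719729 (32.7) on chromosome 13 and chr15:73265071-73265894 (29.7) on chromosome 15. It was chr4:132180063-132180755 (28.3) on chromosome 4, chr11:35965608-35966148 (27.4) on chromosome 11 and chr10:88175095-88175643 (26.2) on chromosome 10. Chromosomes 5 and 6 led with chr5:107282157-107282801 (25.3) and chr6:116674441-116675043 (25.3). Lower leading values were found at chr12:74189758-74190321 (21.7), chr14:67807376-67807965 (21.0), chr17:13202611-13203230 (20.4) and chrX:71244494-71245122 (15.6). The only peak on chromosome Y, chrY:2685064-2685312, had 2.90, with a control background of 10.4 times the lowest.

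Height and enrichment were related across the list but picked different peaks at the very top. The Spearman rho of pileup and fold enrichment was 0.29 over all peaks and 0.49 over the 3465 of low control background, and the 453 peaks with a fold enrichment of at least 10 had a median pileup of 113 against 52 for the whole list. The control background was high at 406 peaks, or 10.5% (9.56 to 11.5), and at least 20 times at 59. All 10 peaks of highest pileup were in this set and none was among the 10 of highest fold enrichment. Their leaders were chr1:24618398-24622998 and chr2:98506556-98507495, each with a pileup of 454, a fold enrichment of 1.45 and a background of 74.9 times the lowest. The next were chr9:3000115-3000866 (452), chr9:3034759-3035292 (451), chr9:3003251-3003737 (445), chr9:3025347-3026036 (443), chr9:3023362-3023792 (436), chr9:3018322-3018704 (433), chr9:3000937-3001571 (431) and chr2:98502519-98503118 (430), with fold enrichments of 1.39 to 1.54. The 2 mitochondrial peaks left out had the same pileup of 454, so 4 peaks shared this value and no peak of the list exceeded it. Whether 454 is a ceiling of the caller was not tested, so height and fold enrichment at these peaks may be limited by it. Of the 72 peaks with a pileup of at least 300, 55 had a high background, or 76.4% (65.4 to 84.7). Of the 453 with a fold enrichment of at least 10, 4 had one. The background was computed from pileup and fold enrichment, so the direction of this contrast was largely set by how the peaks were chosen. Among peaks below 5 times the lowest background, the highest pileups were at chr5:144175260-144176402 (427), chr8:77605569-77608487 (420), chr15:97616603-97617843 (408), chr8:77612939-77614159 (396) and chr19:10052713-10053459 (386), with fold enrichments of 22.6, 23.1, 27.7, 33.0 and 32.0. The next 5 were at chr5:124501789-124502735 (368), chr3:146317596-146318583 (353), chr5:43746240-43746905 (352), chr11:60748760-60749541 (349) and chr7:111009212-111010083 (338). In this restricted set 3 of the 10 highest pileups were also among the 10 highest fold enrichments.

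**Figure D2:**
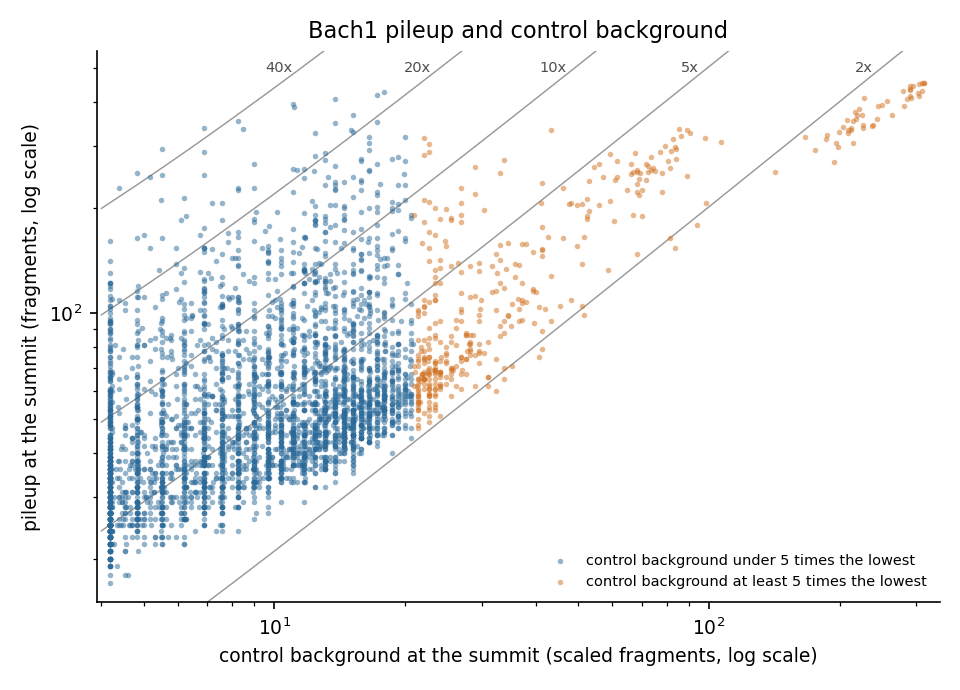
Pileup (fragments) against the computed control background (scaled fragments) at the summit of each Bach1 peak, on log scales, with grey lines of equal fold enrichment at 2, 5, 10, 20 and 40. The peaks of highest pileup at the far right lie below the line for 2, while the peaks of highest fold enrichment lie at the left with a background under 5 times the lowest.

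One set of peaks was both short and tall and was singled out after the plot of length and pileup was seen. It held 81 peaks under 300 bp with a pileup of at least 150, and all 81 had a control background of at least 5 times the lowest (8.24 to 54.1, median 16.8). The background was computed from the pileup used to choose this set, so the high background is not independent of the choice. Their fold enrichment ran from 1.42 to 5.57. They lay on 19 chromosomes, with 11 on chromosome 9, and 22 had a background of at least 20 times the lowest. Of the 81, 66 had no neighbour within 50 kb, where 63.4% of all 3871 peaks had none.

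Peaks were found on all autosomes at unequal density. Density was computed over the span from the first to the last peak of the 3 lists on each chromosome. It was 1.59 peaks per Mb over the autosomes, from 1.05 on chromosome 14 (117 peaks) and 1.07 on chromosome 12 (125 peaks) to 2.39 on chromosome 11 (284 peaks) and 2.62 on chromosome 19 (151 peaks). Chromosome X held 70 peaks over a span of 160 Mb, or 0.438 per Mb. The X peaks were also lower in pileup, with a median of 38 against 53 on the other chromosomes, but not in fold enrichment, with a median of 5.07 against 4.64. The median control background was 1.48 times the lowest at X peaks and 2.47 times at the others. Whether the lower coverage of X in the control has a part in its lower count was not tested.

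The density of chromosome 9 moved most when peaks of high control background were left out, from 2.25 to 1.70 per Mb, and that of chromosome 19 stayed highest at 2.48. Chromosomes 9, 3, 5, 11, 15 and 16 held 269 of the 406 peaks of high background, or 66.3%, and 36.7% of all peaks. Of the 66 on chromosome 9, 35 lay in the group at chr9:3000115-3038220. The median background at the peaks of these 6 chromosomes was 2.80 to 3.22 times the lowest. On the other 14 chromosomes, leaving out Y, it was 1.48 to 2.58 times. The 6 are those with most peaks of high background, so the direction of this contrast was largely set by the choice. No cause of this difference between chromosomes was tested.

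**Figure D3:**
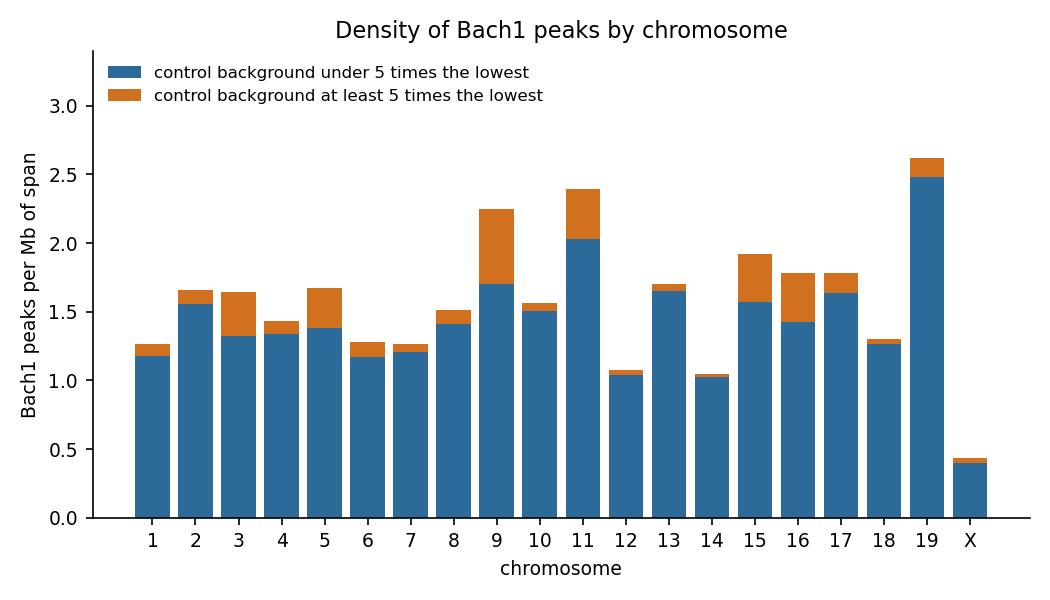
Bach1 peaks per Mb of span on each chromosome, leaving out Y, stacked by control background at the summit. Chromosome 19 is highest at 2.62 per Mb and chromosome X lowest at 0.438, and the upper part of the bar, the peaks of high background, is largest on chromosome 9.

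Within chromosomes the peaks were uneven as well. Of 2562 bins of 1 Mb, 1475 held at least 1 peak, or 57.6% (55.6 to 59.5), 557 held exactly 1 and 195 held 5 or more. Those 195 bins, 7.61% of all, held 34.7% of the peaks. The variance of the count per bin was 3.11 times its mean, and 2.66 times without peaks of high background. The fullest bins began at 3 Mb on chromosome 9 (35 peaks), 23 Mb on chromosome 13 (28 peaks), 21 Mb on chromosome 13 (20 peaks), 5 Mb on chromosome 19 (16 peaks), and 116 Mb on chromosome 4 and 120 Mb on chromosome 11 (14 peaks each). All 35 peaks of the first of these had a high control background, against 1 of 28 in the second.

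The longest stretch between neighbouring summits was 17.5 Mb, on chromosome X from 52682449 to 70181944. The others of more than 11 Mb were on chromosome 5 from 5266643 to 20134950 (14.9 Mb), on chromosome 7 from 39310569 to 50891760 (11.6 Mb) and on chromosome X from 71340703 to 82575096 (11.2 Mb). Of the 8 longest stretches, 5 were on chromosome X. A stretch without peaks held none above the threshold of the caller and is not shown to be unbound.

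Neighbouring summits were a median of 222 kb apart (quartiles 60.3 to 691). A neighbour within 10 kb was found for 624 peaks, or 16.1% (14.995 to 17.3), and one within 1 kb for 193, or 4.99% (4.34 to 5.72). Without peaks of high background these shares were 13.7% (12.6 to 14.9) and 3.67% (3.09 to 4.34). In the Bach2 list 13.3% of 1385 peaks and in the Mafk list 3.81% of 1759 had a neighbour of their own list within 10 kb. The lists differ in length and the depths of their libraries are unknown, so these shares are set side by side and were not tested.

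**Figure D4:**
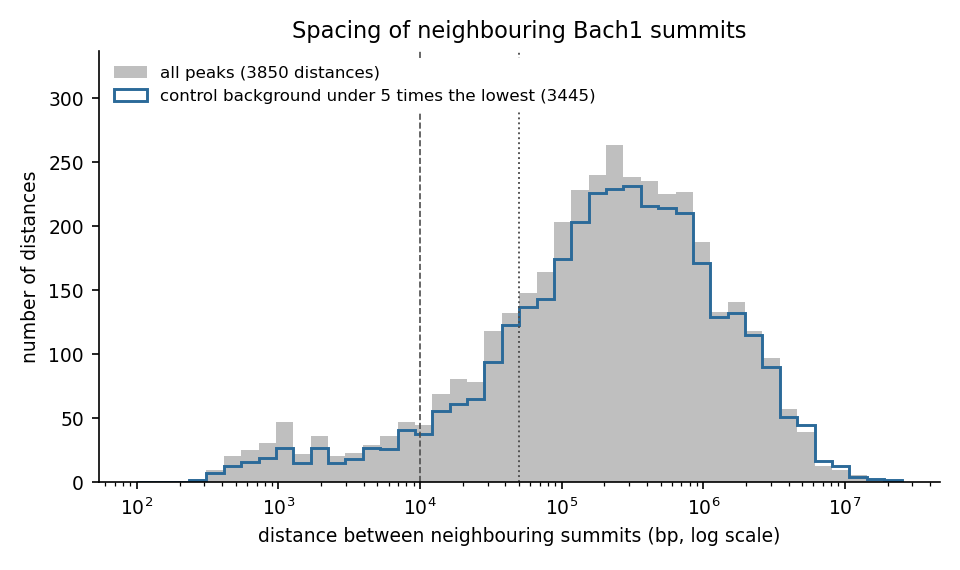
Distances between neighbouring Bach1 summits on the same chromosome (bp, log scale) for all peaks in grey and for peaks with a control background under 5 times the lowest as a line. Dashed and dotted lines mark 10 and 50 kb. The main mass lies around the median of 222 kb, with a tail of shorter distances to the left.

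The heights of close neighbours were compared. Among peaks below 5 times the lowest background, 64 neighbouring pairs had summits within 1 kb, and the taller had a median of 1.33 times the pileup of the lower (quartiles 1.23 to 1.81). This ratio was 1.60 for 53 pairs at 1 to 2 kb, 1.43 for 150 pairs at 2 to 10 kb, 1.48 for 421 pairs at 10 to 50 kb and 1.58 for 2757 pairs over 50 kb apart. Fold enrichments of neighbours had a Spearman rho of 0.17 within 1 kb, -0.08 at 1 to 2 kb, 0.28 at 2 to 10 kb, 0.09 at 10 to 50 kb and -0.02 over 50 kb. With high background included the first 2 values were 0.57 and 0.60. Correlations are across pairs of 1 library that share depth and local background.

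The closest pair in which both peaks had a pileup of at least 78 lay on chromosome 2, where chr2:22445000-22445256 and chr2:22445313-22445609 had summits 118 bp apart, pileups of 334 and 327 and fold enrichments of 1.59 and 1.56. The next 4 lay in the dense stretch at the start of chromosome 9, with first peaks at chr9:3017831-3018217 (471 bp to the next summit), chr9:3003989-3004295 (474 bp), chr9:3034438-3034698 (504 bp) and chr9:3025347-3026036 (605 bp). Below 5 times the lowest background, the closest such pairs were chr2:62523213-62523912 with chr2:62524064-62524512 (766 bp apart, pileups 122 and 94) and chr2:128253652-128254707 with chr2:128254774-128255319 (1037 bp, 107 and 106). They were followed by chr11:104431502-104431985 with chr11:104432485-104433263 (1171 bp, 125 and 211), chr3:96049129-96050013 with chr3:96050228-96051254 (1247 bp, 78 and 95) and chr5:92555807-92556801 with chr5:92557615-92558085 (1518 bp, 202 and 85). A neighbour as tall as its partner was thus found at the second of these pairs, with fold enrichments of 8.98 and 8.95.

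Joining peaks whose neighbouring summits were at most 50 kb apart left 2453 peaks alone, 63.4% (61.8 to 64.9) of the list. A further 1205 peaks formed 519 runs of 2 to 4, and 213 formed 25 groups of 5 or more. Pooled over the 25 groups, the 213 peaks were longer and taller but less enriched than lone peaks. Their median length was 465 bp against 343 bp, their median pileup 69 against 51 and their median fold enrichment 3.75 against 4.86. These medians lean on few loci. Of the 213 peaks, 35 lay in the chromosome 9 group described below and 49 in 4 groups of chromosome 13. Median fold enrichments by group ran from 1.52 on chromosome 9 to 10.4 at chr5:91170873-91217471. The contrast with lone peaks thus did not hold in each group, as the median of this chromosome 5 group lay above 4.86. Some groups also had a median length under 343 bp or a median pileup under 51. A high control background was found at 30.05% (24.3 to 36.5) of the grouped peaks and 8.23% (7.21 to 9.39) of the lone ones. Among the peaks of these same groups and the lone peaks that were below 5 times the lowest background, the medians were 471 against 346 bp in length, 59 against 48 in pileup and 4.27 against 5.06 in fold enrichment, for 149 grouped and 2251 lone peaks. The median background was 3.13 times the lowest at these grouped peaks and 1.98 times at the lone ones. Its part in the lower fold enrichment was not tested. Nor was the weight of the chromosome 13 groups, whose 49 peaks were all but 1 in this low-background set.

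The group with most peaks lay at chr9:3000115-3038220. It held 35 peaks in 38.1 kb, with neighbouring summits a median of 1000 bp apart. All had pileups from 305 to 452, fold enrichments from 1.36 upward with a median of 1.52, and a background of 44.5 to 74.0 times the lowest. By this median it was the least enriched of the 25 groups.

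Chromosome 5 held 5 of the 25 groups, and chromosomes 11 and 13 held 4 each. Those of chromosome 13 lay within 2.07 Mb and held 49 of its 197 peaks. The largest, chr13:21798604-21927160, held 17 peaks with pileups of 33 to 114 (median 68), a median fold enrichment of 4.42, a lowest of 2.47 and a median length of 669 bp. The group at chr13:23622749-23714421 held 16 peaks with a median pileup of 65.5, a median fold enrichment of 4.17 and a median length of 663 bp. The group at chr13:23775394-23870651 held 11 peaks (66, 4.27 and 605 bp) and that at chr13:22113480-22135511 held 5 (59, 4.25 and 547 bp). The strongest of all these peaks had a fold enrichment of 7.44, so none reached 10, and the medians of the 4 groups lay between 4.17 and 4.42. Only 1 of the 49 peaks had a background of at least 5 times the lowest. Outside the groups chromosome 13 had 1.28 peaks per Mb, against 1.70 with them. A similar group of long peaks of moderate enrichment lay at chr3:96023793-96074124, with 9 peaks, a median length of 800 bp and a median fold enrichment of 4.12, but 7 of these 9 had a high background.

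The group at chr19:5791954-5850545 was made of unequal peaks at its 2 ends. Its 10 peaks began with chr19:5791954-5792459 (pileup 110, fold enrichment 12.5) and ended with chr19:5849870-5850545 (pileup 244, fold enrichment 17.1). The 8 peaks between them had pileups of 34 to 105 and fold enrichments of 2.25 to 7.25, and 5 of the 10 lay within the last 4.88 kb. Unequal groups were also found at chr4:116793075-116883946, with 9 peaks of which the strongest, chr4:116808610-116809242, had 14.9 against a median of 3.92, and at chr8:129018659-129138396, with 6 peaks led by chr8:129074738-129075427 (19.4, median 4.89). By contrast, the 9 peaks at chr1:88334522-88423180 all lay between 2.65 and 3.78.

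In the group at chr11:87236151-87341780 the first 6 of 8 peaks were alike, each 1016 to 1192 bp long, with pileups of 124 to 154, fold enrichments of 7.77 to 10.1 and summits at 0.466 to 0.516 of the length. The last 2 were shorter, at 444 and 352 bp, and lower, at 83 and 63. No other group of 5 or more reached its median length of 1043 bp except chr11:101466090-101520515, whose 5 peaks had a median of 1184 bp and all had a high background.

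**Figure D5:**
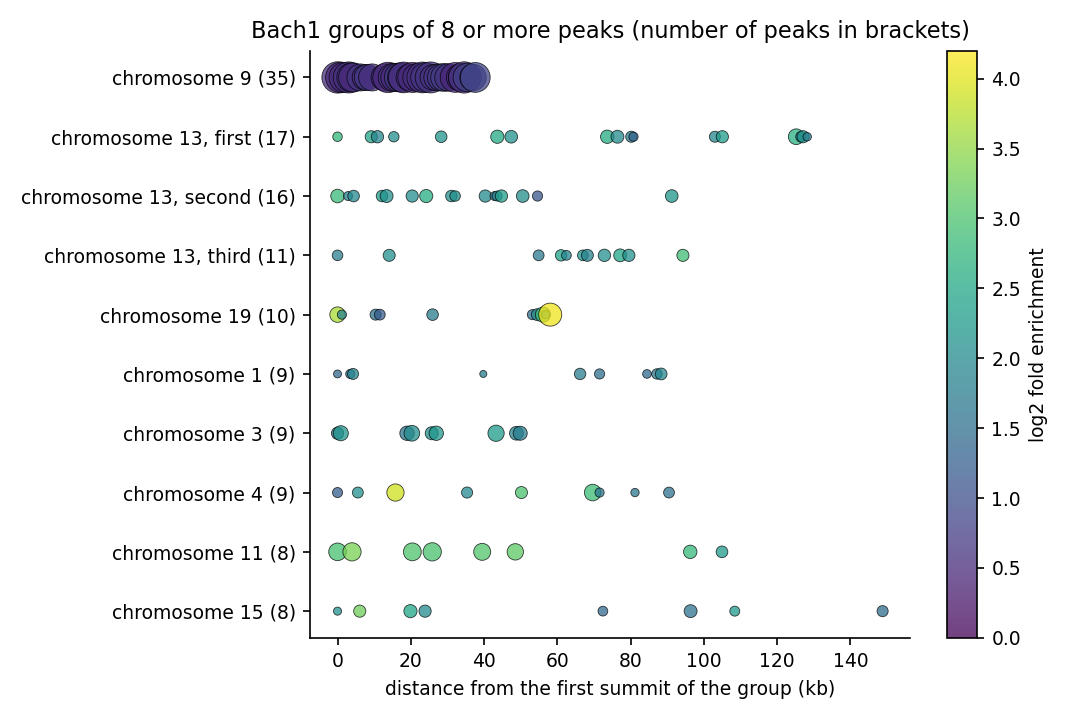
Positions of the peaks in the 10 Bach1 groups of 8 or more peaks, as distance in kb from the first summit of each group. Point area is proportional to pileup and colour gives log2 fold enrichment. The 35 tall, weakly enriched peaks of chromosome 9 lie within 38.1 kb, the 3 groups of chromosome 13 hold no peak as strong as the ends of the chromosome 19 group, and the chromosome 19 group has its strongest peaks at its ends.

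Runs that held more than 1 strong peak were then listed. Of the 453 peaks with a fold enrichment of at least 10, 307 had no neighbour within 50 kb, or 67.8%, near the 63.4% of all peaks. A run was shared with another such peak by 37 of them, in 18 runs on 12 chromosomes, and 1 run held 3 of them. This choice of runs was made after the values were seen. At 2 of the 18 runs both leading peaks reached 20. One was on chromosome 8, where chr8:77605569-77608487 (pileup 420, fold enrichment 23.1) was followed 5.76 kb on by chr8:77612939-77614159 (396 and 33.0), another 3.87 kb on by chr8:77617280-77617749 (105 and 8.22), and 15.1 kb further by chr8:77632481-77632731 (47 and 3.58). The values thus fell from the second to the fourth summit, over background levels of 2.64 to 2.97 times the lowest. The other was on chromosome 10, where chr10:88171359-88172033 (227 and 22.9) and chr10:88175095-88175643 (185 and 26.2) had summits 3.68 kb apart and no further neighbour within 50 kb.

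The run with 3 such peaks was chr5:91170873-91217471, a group of 5 whose values in order were 11.1, 16.0, 6.56, 10.4 and 3.73, with pileups of 201, 125, 33, 138 and 31. On chromosome 7, chr7:52712586-52713067 (149 and 12.1), chr7:52714939-52715766 (68 and 4.88) and chr7:52715882-52716747 (318 and 18.2) lay within 4.16 kb, the last pair with summits 808 bp apart. On chromosome 1, the run chr1:45917165-45938656 held 3 peaks, of which the leading ones had 20.5 and 19.2 at a background of at most 1.15 times the lowest.

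At the other end of the list, the lowest pileup was 17 at chr2:19249563-19249840, with a fold enrichment of 3.47, and the next were 18 at chr1:162216049-162216315, chr5:32318352-32318593 and chr5:144176600-144176829. The last of these lay beside the tallest peak of low background, chr5:144175260-144176402, with summits 824 bp apart. The lowest fold enrichments, from 1.36 to 1.39, were at 4 peaks of the chromosome 9 group and at chr12:3109779-3110179. In all 57 peaks had a fold enrichment under 2, among them the 35 of the chromosome 9 group. All 57 had a high control background, since the lowest fold enrichment at a low background was 2.08.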

How the data were processed

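Libraries were read from both ends at 51 bases each, per the labels' protocols. Of the tools in the submitters' processing notes, BWA 0.7.10 and MACS2 2.1.0 are listed beside CASAVA 1.8 and the build mm9, with no settings. The Bach1 list was deposited with 1 row per peak (position, length, summit, pileup and fold enrichment, per the file headers). Pileup is a signal in the authors' list, whole at each peak. Fold enrichment is the authors' ratio of pileup to the local control. The peak names carry a q threshold of 0.01. Counts of reads per library are not given in the sources used here, so the depth is unknown.

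Python 3.11.15, pandas 2.3.3, numpy 2.4.6 and scipy 1.17.1 were used. The control background was computed as (pileup + 1) / fold enrichment - 1. Runs joined neighbouring summits at most 50 kb apart. Intervals are Wilson 95%. Peaks were named by rule: the 10 highest in pileup and in fold enrichment, the 5 longest, the 5 groups with most peaks, the 5 closest pairs of tall peaks and the strongest on each chromosome, whose entry on chromosome 18 is not printed. Heights, lengths and pairs were ranked again among peaks of low control background. Further groups were named after their values were seen, and so were the runs of strong peaks. The members, lists and rules were chosen with earlier results of these data known. The spacing and background functions were checked on simulated peaks. Distances to genes were not computed for want of mm9 annotation.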

Additional observations from a re-analysis of the deposited data

How the results depend on the processing

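Of 47 alternative values, 16 stayed within 1.5 times the reported count or within its 95% interval, and none changed its direction. Keeping only peaks with a fold enrichment of at least 5 gave a median length of 426 bp, a median pileup of 66 and a median fold enrichment of 7.21, a rho of length and pileup of 0.79, 79.8% of summits in the middle 20%, 40.7% of 1 Mb bins occupied, 0.679 peaks per Mb, 6.37% of peaks with a neighbour within 10 kb, 2 groups of 5 or more with 0.752% of the peaks, and grouped peaks that differed from lone ones by -0.20 in median fold enrichment and 51 in median pileup. Leaving out peaks of high control background and then joining the rest anew gave a median pileup of 49, a median fold enrichment of 4.92, a rho of 0.69, 54.4% of bins, 13.7% with a near neighbour, 3.81% in groups and a pileup difference of 9, with 17 groups instead of 25; the regrouping is why the last values differ from those of the low-background peaks within the original groups. A gap of 10 kb gave 4 groups with 1.63% of the peaks and differences of -3.10 and 272. Most of these peaks were the 35 of the chromosome 9 group, whose longest gap was 3.46 kb, so both differences describe mainly that high-background locus. A gap of 20 kb gave 14 groups, 3.23% and a pileup difference of 36, and a gap of 100 kb 47 groups and 9.40%. A neighbour was within 5 kb at 11.7% and within 20 kb at 22.6%, and 92.7% of 5 Mb bins were occupied. Measuring between peak edges, including the mitochondrial genome or using the span of the Bach1 peaks alone moved no value beyond its interval or 1.5 times. Known target genes could not be tried at any distance. No paired analysis was possible because there was a single Bach1 library, which also leaves nothing to omit in turn. Sites near the threshold are limited by its unknown depth.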
